A study of Homo sapiens with 20 samples.

Results

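The CCN family of secreted matricellular proteins was followed across 20 microarrays of MII cells (MCF10-T1k), a human mammary epithelial line transformed with RAS. Its members are CCN1 (CYR61), CCN2 (CTGF), CCN3 (NOV), CCN4 (WISP1), CCN5 (WISP2) and CCN6 (WISP3), taken as every probe set that the platform annotation assigns to one of these 6 genes under an old or a new symbol. This gave 12 probe sets of the 54675 on the array, and 6 of the 19775 genes with a probe set of their own: 4 probe sets for CCN4, 2 each for CCN1, CCN3 and CCN6, and 1 each for CCN2 and CCN5. All cells grew with insulin, EGF, hydrocortisone and cholera toxin and received siRNA by lipofection, and 5 groups of 4 arrays were made: siAPC/siTAZ cells received siRNA against APC and TAZ, siAPC cells against APC, sibcat/siTAZ cells against beta-catenin and TAZ, sibcat cells against beta-catenin, and control cells against GFP. The APC protein holds together the complex that sends beta-catenin (encoded by CTNNB1) to degradation. TAZ, encoded by WWTR1, is a coactivator that the Hippo pathway restrains and that reaches DNA through TEAD factors. The title of the series concerns the role of TAZ in mediating Wnt signals, and the comparisons address how the family answered depletion of APC or of beta-catenin and what a second siRNA, against TAZ, did to that answer. No group received TAZ siRNA alone, and a single cell line was used. The labels name the replicates A to D and call them biological without saying that they were separate cultures, so the p-values measure the spread between these samples, which may be technical.

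CCN proteins are secreted into the extracellular matrix, where they bind integrins, heparan sulfate proteoglycans and growth factors and modulate adhesion, migration and proliferation rather than build the matrix itself. They share a layout of an IGFBP-like module, a von Willebrand factor type C module, a thrombospondin type 1 module and a C-terminal cystine knot, and CCN5 lacks the cystine knot. CCN1 and CCN2 are standard targets of YAP and TAZ acting through TEAD factors, while CCN4 was first found as a gene induced by Wnt-1 in mouse mammary epithelial cells.

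The values are log2 signals after robust multi-array averaging (RMA), and the array medians lay between 5.07 and 5.11. Each siRNA lowered its target in the probe set with the highest mean. WWTR1 fell by 2.67 ± 0.06 (log2, SE) to a mean of 7.98 when TAZ siRNA joined APC siRNA, and it changed by -2.21 ± 0.06 to a mean of 8.41 when TAZ siRNA joined beta-catenin siRNA. WWTR1 was also lower than in control cells without TAZ siRNA. Its change was -0.41 ± 0.06 in siAPC and -0.43 ± 0.06 in sibcat cells (limma adjusted p = 7.66e-06 and 5.55e-06). APC fell by 0.88 in siAPC cells and by a further 0.46 in siAPC/siTAZ cells, so these 2 groups differ in APC mRNA as well as in TAZ. Other APC probe sets differed less between them. The siAPC and siAPC/siTAZ means were 4.835 and 4.595 for 203526_s_at and 5.175 and 5.0375 for 203527_s_at. The dim 215310_at and 216933_x_at were not lower in siAPC/siTAZ cells. CTNNB1 fell by 1.34 (log2) in sibcat cells and by a further 1.41 in sibcat/siTAZ cells. The comparison of these 2 groups thus differs in beta-catenin mRNA as well as in TAZ. A second CTNNB1 probe set, 1554411_at, differed less between them, with means of 6.6025 in sibcat/siTAZ, 7.08 in sibcat and 9.205 in control cells. Another, 223679_at, averaged 7.36 in sibcat/siTAZ and 7.16 in sibcat cells, against 7.0025 in control cells. All 8 epithelial markers measured were above the array median in every group, with array means between 11.0 and 11.7. Their levels were not constant. Against control cells 2 were higher and 6 lower (limma, adjusted p under 0.05) in siAPC and in sibcat cells alike. In siAPC/siTAZ cells 1 was higher and 7 lower, and in sibcat/siTAZ cells none was higher and 7 lower. Of all genes 17.4%, 14.3%, 23.1% and 18.3% were lower in these comparisons, and 20.0%, 19.9%, 22.2% and 24.3% higher. Endothelial and leukocyte lists had means of 4.07 to 4.83 on the arrays. Of 5 leukocyte markers 2 or 3 were above the array median in each group, and of 7 endothelial markers 1 or 2. The leukocyte gene PTPRC averaged 2.70, but LAPTM5 averaged 6.71 and the endothelial gene PECAM1 6.18.

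The family did not move as a block. A probe set was called at an adjusted p under 0.05 (limma, two-sided, Benjamini-Hochberg adjustment over 54613 probe sets), and a gene was counted by its probe set with the highest mean. In siAPC cells 4 of the 6 genes were higher than in control cells (CCN1, CCN2, CCN3 and CCN4), none was lower and 2 were not called, beside 20.0% of all genes higher and 17.4% lower. In sibcat cells CCN1 and CCN2 were higher and CCN3 and CCN4 lower than in control cells, with 2 not called, beside 19.9% of all genes higher and 14.3% lower. The rises of CCN1 and CCN2 were thus seen with either siRNA, while CCN3 and CCN4 moved one way with APC siRNA and the other way with beta-catenin siRNA. These 2 comparisons use the same 4 control arrays.

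Adding TAZ siRNA lowered CCN1, CCN2 and CCN5 in both backgrounds. In siAPC/siTAZ cells 3 of the 6 genes were lower than in siAPC cells, 2 (CCN3 and CCN4) were higher and 1 was not called, beside 19.9% of all genes higher and 21.7% lower. In sibcat/siTAZ cells 3 were lower than in sibcat cells, 1 (CCN3) was higher and 2 were not called, beside 16.3% of all genes higher and 12.5% lower. Set against control cells, siAPC/siTAZ cells had 2 genes higher, 3 lower and 1 not called (22.2% of all genes higher and 23.1% lower). The sibcat/siTAZ cells had 1 higher, 4 lower and 1 not called (24.3% of all genes higher and 18.3% lower). The median change over all genes lay between -0.04 and 0.01 in the 9 comparisons tested.

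**Figure D1:**
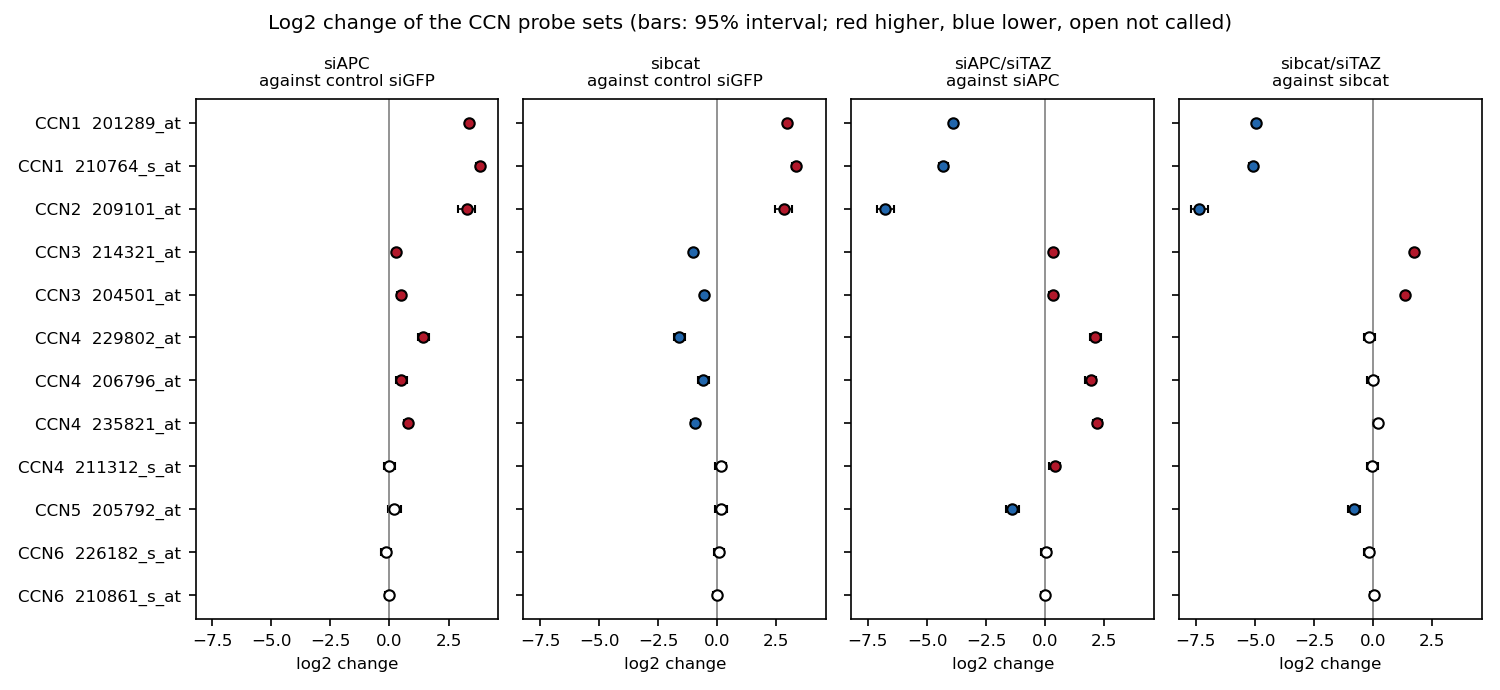
Log2 change (x axis) of each of the 12 CCN probe sets (rows) in 4 comparisons, with bars for the 95% interval; red is higher, blue lower and open not called. CCN1 and CCN2 lie right of 0 in both comparisons with control cells and left of 0 in both TAZ siRNA comparisons, where the CCN2 changes were -6.76 and -7.35.

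CCN2, a secreted driver of matrix production and wound repair, had the largest fall of all 19775 genes when TAZ siRNA was added, in the siAPC and in the sibcat background alike. Its gene lies on chromosome 6, 131948176 to 131951372 in GRCh38.p14, and is read from the minus strand. Its probe set 209101_at had log2 signals of 3.77, 4.23, 4.38 and 4.70 on the siAPC/siTAZ arrays, against 11.05, 10.99, 11.08 and 11.01 on the siAPC arrays. The sibcat/siTAZ arrays read 2.72, 3.04, 3.45 and 3.64, against 10.62, 10.52, 10.51 and 10.60 for sibcat, and the control arrays read 7.88, 7.79, 7.81 and 7.57. Every array without TAZ siRNA was therefore above every array with it, and the siAPC and sibcat arrays were also all above the control arrays.

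CCN2 rose by 3.27 ± 0.17 (log2, SE) in siAPC cells (9.65-fold, limma adjusted p = 3.11e-12) and by 2.80 ± 0.17 in sibcat cells (6.96-fold, adjusted p = 6.22e-11). These were the rises ranked 36 and 28 among all genes. The change with TAZ siRNA was -6.76 ± 0.17 in the siAPC background (adjusted p = 3.43e-17) and -7.35 ± 0.17 in the sibcat background (adjusted p = 1.82e-17). The signal ratios of 109 and 163 may be underestimates, because the lower means of 4.27 and 3.21 lay under the array medians. With TAZ siRNA, CCN2 also ended below its control level, with changes of -3.49 in siAPC/siTAZ cells and -4.55 in sibcat/siTAZ cells (adjusted p = 6.82e-13 and 1.96e-14), each the fifth largest fall of its comparison (rank 5). In rank among probe sets, CCN2 stood at percentile 36.6 in siAPC/siTAZ, 97.4 in siAPC, 18.6 in sibcat/siTAZ and 96.3 in sibcat cells, against 80.1 in control cells. Whether cells with a lost signal were fewer or carried less CCN2 mRNA each cannot be told apart in bulk RNA.

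The order of CCN2 levels was siAPC, sibcat, control, siAPC/siTAZ, sibcat/siTAZ, and each neighbour differed from the next by the test. The closest pair was siAPC and sibcat, with means of 11.03 and 10.56 and a difference of 0.47 ± 0.17 (adjusted p = 0.0457). That call was lost when any one of the 8 arrays of these groups was left out (adjusted p between 0.0671 and 0.0935).

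The stretch around the CCN2 start site is shown because CCN2 changed most with TAZ siRNA, beside that of CCN6, the member with no call; both come from RefSeq (GRCh38.p14), which gave promoters for 2 of the 6 members in the table used. Each runs 5′ to 3′ on the gene's strand, from 250 bases before the start to 50 after it, with capitals marking the TEAD-type letters GGAATG or, on the other strand, CATTCC. The CCN6 window surrounds a start inside the gene span given for CCN6 below, so its positions refer to that internal start and not to the gene's first base. The CCN2 window is chr6:131951323-131951622 (minus strand) and the CCN6 window chr6:112053854-112054153 (plus strand).
CCN2: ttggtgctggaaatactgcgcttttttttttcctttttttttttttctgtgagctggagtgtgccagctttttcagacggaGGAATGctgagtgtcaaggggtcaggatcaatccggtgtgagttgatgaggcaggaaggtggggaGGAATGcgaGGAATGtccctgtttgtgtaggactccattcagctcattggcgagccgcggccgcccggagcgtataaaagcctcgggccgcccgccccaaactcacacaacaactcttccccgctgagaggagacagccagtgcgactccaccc
CCN6: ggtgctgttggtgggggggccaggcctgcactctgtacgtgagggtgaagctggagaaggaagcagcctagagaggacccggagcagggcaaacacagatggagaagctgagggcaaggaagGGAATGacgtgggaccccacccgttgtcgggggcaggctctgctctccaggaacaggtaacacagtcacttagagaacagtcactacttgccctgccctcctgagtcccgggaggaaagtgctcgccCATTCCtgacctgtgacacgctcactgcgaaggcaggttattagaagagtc
The CCN2 window holds 3 copies of GGAATG, at positions -169 to -164, -104 to -99 and -95 to -90 from the start, all on the gene's own strand and none overlapping. Of 35116 human promoter windows of the same length, 14.03% hold at least 1 copy on either strand and 0.128% hold 3 or more. The CCN6 window holds 2, one at -128 to -123 and one on the opposite strand at -1 to 5, across the start, and 1.37% of windows hold 2 or more. A TATA box (TATAAA) was found at -32 to -27 in the CCN2 window and not in the CCN6 window (11.5% of windows hold it). The letters of a TCF/LEF site (CTTTGAT, 2.62% of windows), an AP-1 site (TGANTCA, 7.71%) and a SMAD site (CAGACA, 16.9%), searched on both strands, were in neither window. Letter matches describe these windows and do not show binding.

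CCN1, an immediate-early matricellular protein that acts through integrins and was named for its richness in cysteine, moved in the same directions as CCN2. Its gene lies on chromosome 1, 85580761 to 85583950 in GRCh38.p14. Its probe set 201289_at had log2 signals of 8.10, 8.21, 8.15 and 8.25 on the siAPC/siTAZ arrays, against 12.10, 11.93, 12.15 and 12.11 on the siAPC arrays. The sibcat/siTAZ arrays read 6.90, 6.64, 6.66 and 6.65, against 11.65, 11.78, 11.62 and 11.55 for sibcat, while the control arrays read 8.71, 8.71, 8.72 and 8.68. Each group occupied a range of its own, and no array fell within the range of another group.

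CCN1 (201289_at) rose by 3.37 ± 0.06 (log2, SE) in siAPC cells (10.3-fold, adjusted p = 8.83e-19) and by 2.94 ± 0.06 in sibcat cells (7.70-fold, adjusted p = 1.37e-17). TAZ siRNA changed it by -3.90 ± 0.06 in the siAPC background, 14.9-fold lower (adjusted p = 1.36e-19), and by -4.94 ± 0.06 in the sibcat background, 30.6-fold lower (adjusted p = 8.44e-21). The second of these was the third largest fall among all genes (rank 3), and the first ranked 16. Unlike CCN2, CCN1 stayed within 1.44-fold of control in siAPC/siTAZ cells (-0.53 ± 0.06, adjusted p = 9.9e-07), while in sibcat/siTAZ cells it was 3.98-fold lower than in control cells (-1.99 ± 0.06, adjusted p = 2.83e-15). A second probe set, 210764_s_at, gave the same call in all 8 comparisons between groups, with changes of 3.84 and 3.32 in siAPC and sibcat cells and of -4.31 and -5.09 with TAZ siRNA. The order of CCN1 levels was that of CCN2, and all neighbours differed, siAPC exceeding sibcat by 0.42 ± 0.06 (adjusted p = 3.59e-05).

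**Figure D2:**
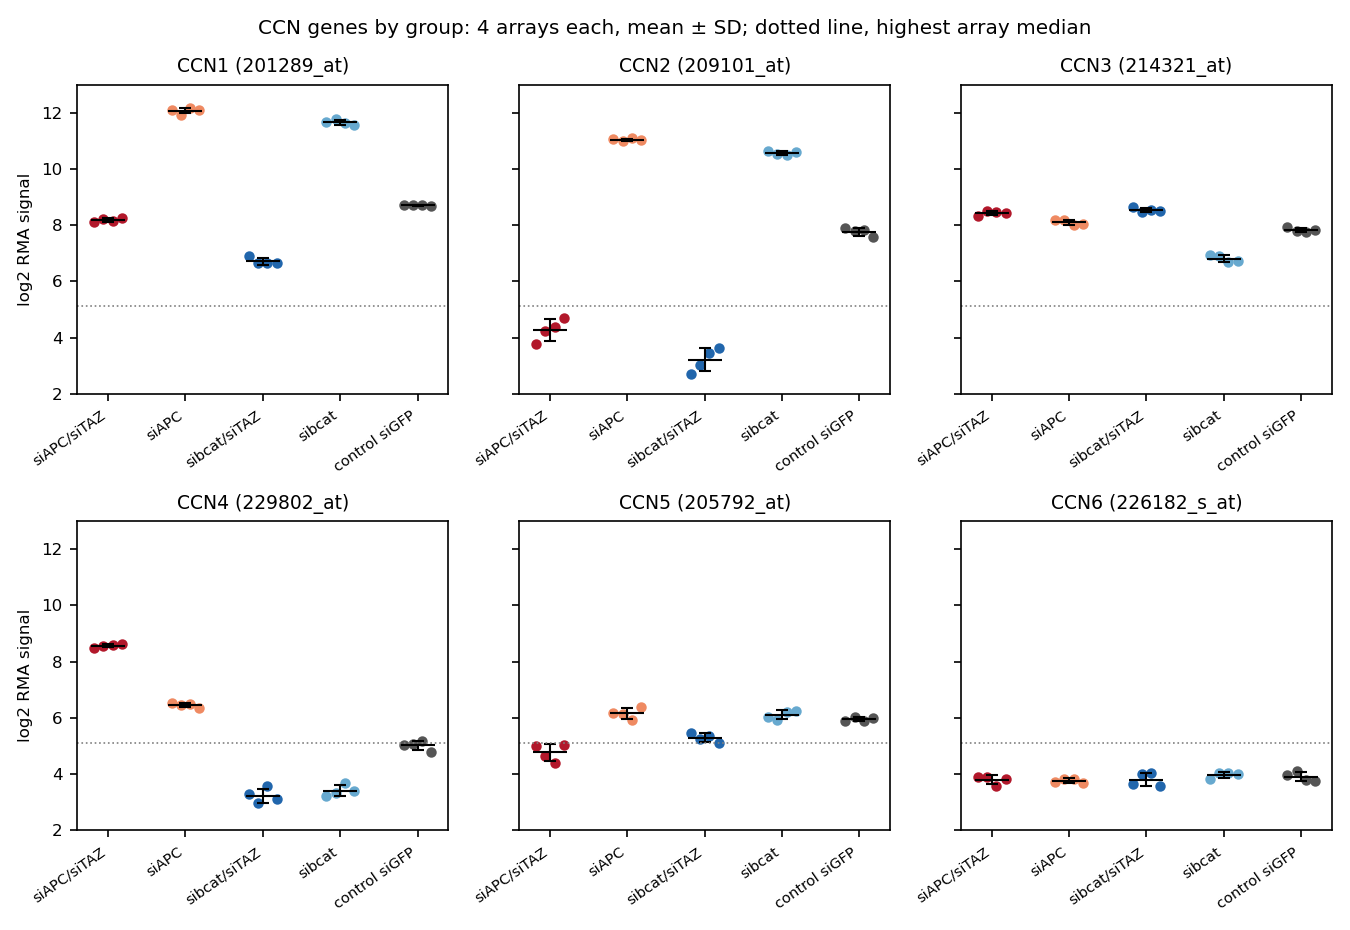
Log2 signal (y axis) of the probe set with the highest mean of each CCN gene on each of the 4 arrays of 5 groups (x axis), with lines for the mean and bars for the SD; the dotted line is the highest array median. CCN2 drops below that line in both groups with TAZ siRNA, CCN4 is highest in siAPC/siTAZ cells, and CCN6 lies below the line throughout.

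CCN4, the Wnt-induced member, did the opposite of CCN2 in siAPC cells given TAZ siRNA. Its gene lies on chromosome 8, 133191039 to 133231690 in GRCh38.p14. Probe set 229802_at had log2 signals of 8.49, 8.55, 8.59 and 8.62 on the siAPC/siTAZ arrays, against 6.52, 6.47, 6.49 and 6.35 on the siAPC arrays. The sibcat/siTAZ arrays read 3.28, 2.96, 3.56 and 3.11, against 3.21, 3.32, 3.68 and 3.41 for sibcat, and the control arrays read 5.05, 5.07, 5.17 and 4.79. The siAPC/siTAZ arrays were the highest and did not overlap any other group, whereas the sibcat/siTAZ and sibcat arrays overlapped at the bottom.

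CCN4 (229802_at) rose by 1.44 ± 0.11 (log2, SE) in siAPC cells (adjusted p = 1.86e-09) and fell in sibcat cells, with a change of -1.61 ± 0.11 (adjusted p = 5.26e-10). TAZ siRNA raised it by a further 2.10 ± 0.11 in the siAPC background (4.30-fold, adjusted p = 3.79e-12), the rise ranked 31 of all genes. In the sibcat background its change with TAZ siRNA was -0.18 ± 0.11 (adjusted p = 0.306, 95% interval -0.41 to 0.05), at signals already below the array medians. Set against control, CCN4 was 11.7-fold higher in siAPC/siTAZ cells (3.54 ± 0.11, adjusted p = 8.28e-16) and lower in sibcat/siTAZ cells (-1.79 ± 0.11, adjusted p = 5.57e-11). The control mean of 5.02 was itself just under the array medians, so that fold may be an underestimate. It lay above the sibcat and sibcat/siTAZ means of this probe set, so it was not the lowest level seen. Between the groups with TAZ siRNA, CCN4 was 5.34 ± 0.11 higher in siAPC/siTAZ than in sibcat/siTAZ cells (adjusted p = 1.99e-18). The sibcat/siTAZ mean of 3.23 lay far under the array medians, so that difference may be an underestimate. In that comparison 3 CCN genes were higher (CCN1, CCN2 and CCN4), 1 was lower (CCN5) and 2 were not called, beside 20.0% of all genes higher and 23.3% lower. Its order of levels was siAPC/siTAZ, siAPC, control, sibcat, sibcat/siTAZ, and only the last 2 did not differ by the test.

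The other CCN4 probe sets were dimmer. Probe sets 206796_at and 235821_at gave the same call as 229802_at in all 8 comparisons between groups, with changes of 1.92 and 2.20 with TAZ siRNA in the siAPC background (adjusted p = 1.75e-11 and 3.26e-14). The fourth, 211312_s_at, stayed between 3.70 and 4.51 on all arrays and was called in 3 of the 8 comparisons, all of them with siAPC/siTAZ cells, with differences of 0.30 to 0.39. The smallest, against sibcat/siTAZ cells (adjusted p = 0.0467), was lost when siAPC/siTAZ A or C or sibcat/siTAZ B, C or D was left out (adjusted p between 0.0873 and 0.148). In the sibcat background 235821_at changed by 0.18 ± 0.08 (adjusted p = 0.146), a value that was called when sibcat replicate C was left out (adjusted p = 0.0278). Beside the rise of CCN4, the Wnt effector LEF1 changed by 1.23 and CTNNB1 by 0.28 (log2) in siAPC/siTAZ against siAPC cells (adjusted p = 1.56e-13 and 0.000229), and the part of these changes in the CCN4 result was not tested.

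CCN3, a family member best known for restraining growth, was highest in the groups with TAZ siRNA and lowest in sibcat cells. Its gene lies on chromosome 8, 119416446 to 119424434 in GRCh38.p14. Probe set 214321_at had log2 signals of 8.33, 8.51, 8.48 and 8.42 on the siAPC/siTAZ arrays, against 8.18, 8.17, 7.99 and 8.05 on the siAPC arrays. The sibcat/siTAZ arrays read 8.64, 8.48, 8.54 and 8.49, against 6.93, 6.90, 6.67 and 6.73 for sibcat, and the control arrays read 7.93, 7.78, 7.76 and 7.83. The 2 groups with TAZ siRNA overlapped each other, and the sibcat arrays lay below all others.

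CCN3 (214321_at) rose by 1.73 ± 0.07 (log2, SE) with TAZ siRNA in the sibcat background (3.32-fold, adjusted p = 5.9e-14), the rise ranked 22 of all genes. In the siAPC background it rose by 0.34 ± 0.07 (1.26-fold, adjusted p = 0.000356). Without TAZ siRNA it was higher in siAPC cells (0.27 ± 0.07, adjusted p = 0.00311) and lower in sibcat cells (-1.02 ± 0.07, adjusted p = 2.66e-10) than in control cells. With TAZ siRNA it was 0.61 and 0.71 above control in the siAPC/siTAZ and sibcat/siTAZ groups, and these 2 groups differed by -0.10 ± 0.07 (adjusted p = 0.27, 95% interval -0.24 to 0.04). The order of levels was sibcat/siTAZ, siAPC/siTAZ, siAPC, control, sibcat, and only the first 2 did not differ by the test. The second probe set, 204501_at, gave the same calls in all 8 comparisons, with TAZ siRNA changes of 1.35 in the sibcat and 0.32 in the siAPC background.

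Some fibroblast-type matrix genes rose with TAZ siRNA in both backgrounds, as CCN3 did, while CCN4 rose in the siAPC background only. The sizes did not run in parallel. CCN3 rose by 0.34 in the siAPC and 1.73 in the sibcat background. The matrix genes named below rose more in the siAPC than in the sibcat background. Of 8 fibroblast markers, 4 rose and 1 fell in siAPC/siTAZ against siAPC cells (19.9% and 21.7% of all genes), and 3 rose and none fell in sibcat/siTAZ against sibcat cells (16.3% and 12.5% of all genes). Their mean signal lay between 6.95 and 7.05 on the siAPC/siTAZ arrays, against 5.84 to 5.995 on the siAPC arrays, and between 6.62 and 6.78 on the sibcat/siTAZ arrays, against 5.90 to 5.98 on the sibcat arrays. On the control arrays it lay between 6.17 and 6.28. COL3A1 rose by 4.78 and 3.61, COL1A1 by 2.68 and 1.82 and DCN by 1.18 and 0.90 (log2) with TAZ siRNA in the siAPC and sibcat backgrounds. The fibroblast markers LUM and PDGFRA averaged 2.82 and 3.88 and were not called in either comparison. The part of these genes in the CCN results was not tested.

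CCN5, which lacks the cystine knot and is known as an oestrogen-induced gene in breast cancer cells, fell with TAZ siRNA but did not pass the test with APC or beta-catenin siRNA alone. Its gene lies on chromosome 20, 44714861 to 44727811 in GRCh38.p14. Probe set 205792_at had log2 signals of 5.00, 4.65, 4.39 and 5.04 on the siAPC/siTAZ arrays, against 6.18, 6.15, 5.91 and 6.39 on the siAPC arrays. The sibcat/siTAZ arrays read 5.46, 5.26, 5.35 and 5.11, against 6.03, 5.91, 6.22 and 6.25 for sibcat, and the control arrays read 5.90, 6.04, 5.87 and 5.98. Both groups with TAZ siRNA lay below the other 3 groups, which overlapped one another.

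CCN5 changed by -1.39 ± 0.13 (log2, SE) with TAZ siRNA in the siAPC background (2.62-fold lower, adjusted p = 1.63e-08) and by -0.81 ± 0.13 in the sibcat background (1.75-fold lower, adjusted p = 4.94e-05). Its changes without TAZ siRNA were 0.21 in siAPC cells (95% interval -0.05 to 0.47, adjusted p = 0.248) and 0.15 in sibcat cells (95% interval -0.11 to 0.42, adjusted p = 0.442). It was also below control in both groups with TAZ siRNA, by a change of -1.18 in siAPC/siTAZ and -0.65 in sibcat/siTAZ cells (adjusted p = 1.41e-07 and 0.000285). The siAPC/siTAZ level was the lowest, 0.52 below that of sibcat/siTAZ cells (-0.52 ± 0.13, adjusted p = 0.00204), and siAPC, sibcat and control cells could not be ordered. The siAPC/siTAZ mean of 4.77 lay under the array medians, so the 2.62-fold value may be an underestimate. The sibcat/siTAZ mean of 5.30 lay just above the medians.

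CCN6, a member lost in an inherited skeletal disorder and reported as a growth suppressor in breast, gave no call in any of the 9 comparisons. Its gene lies on chromosome 6, 112052813 to 112069686 in GRCh38.p14. Its probe set 226182_s_at ranged between 3.56 and 4.11 and its probe set 210861_s_at between 2.35 and 2.66 over the 20 arrays. The 95% intervals over the 8 comparisons between groups lay within -0.42 to 0.27 for the first probe set and within -0.20 to 0.19 for the second. At signals below the array medians these values limit the change of signal, not that of a transcript that may not be expressed.

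TAZ siRNA acted differently in the 2 backgrounds on 4 of the 6 genes, by the test of the difference between its effects (siAPC background minus sibcat background). The difference was positive for 2 genes and negative for 2, beside 10.9% and 13.7% of all genes. CCN4 differed by 2.28 ± 0.16 (log2, SE, adjusted p = 1.71e-09), with effects of 2.10 in the siAPC and -0.18 in the sibcat background. Both sibcat-background means, 3.23 with and 3.41 without TAZ siRNA, lay under the array medians, where a further fall may not be seen, so the size of this difference is uncertain. CCN3 differed by -1.39 ± 0.09 (adjusted p = 1.45e-09), since it rose more in the sibcat background. CCN1 differed by 1.04 ± 0.09 (adjusted p = 5.21e-08), its fall being shallower in the siAPC background. CCN5 differed by -0.58 ± 0.18 (adjusted p = 0.0257), a call lost when any of 5 arrays was left out (siAPC D, siAPC/siTAZ B or C, sibcat B, sibcat/siTAZ A, with adjusted p between 0.0541 and 0.0623).

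For CCN2 the difference was 0.59 ± 0.24 (adjusted p = 0.0982) with a 95% interval of 0.09 to 1.08, so its effects in the 2 backgrounds were not separated by the test, and both ended in signals below the array medians. That value was called without siAPC/siTAZ replicate A (adjusted p = 0.0156) or sibcat/siTAZ replicate D (adjusted p = 0.0275). CCN6 was not called (0.20 ± 0.15, adjusted p = 0.427). Beside these differences, CTNNB1 differed by 1.68, APC by -0.67 and WWTR1 by -0.45 in the same test (log2, adjusted p = 4.17e-12, 2.67e-06 and 0.00032). The part of these 3 siRNA targets in the CCN differences was not tested. Without TAZ siRNA, siAPC cells exceeded sibcat cells in CCN1, CCN2, CCN3 and CCN4, and none was lower (15.0% of all genes higher and 16.3% lower). For CCN4 the difference was 3.05 ± 0.11 (adjusted p = 4.23e-14), which may be an underestimate because the sibcat mean lay under the array medians.

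**Figure D3:**
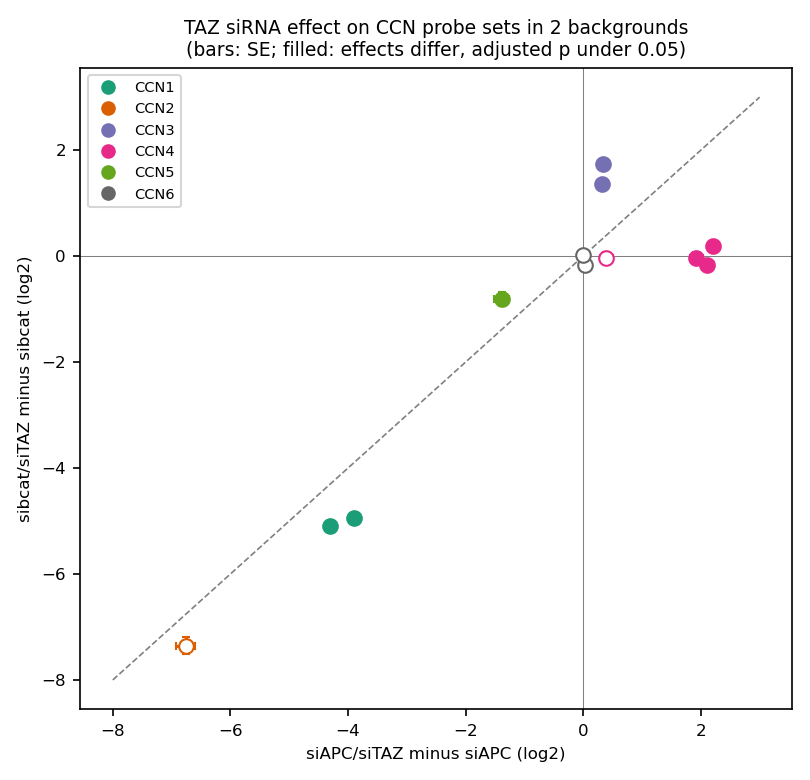
Effect of TAZ siRNA on each CCN probe set in the siAPC background (x axis, log2) and in the sibcat background (y axis, log2), with SE bars; filled points are those whose effects differ at an adjusted p under 0.05, and the dashed line marks equal effects. CCN4 lies to the right at effects near 2 against about 0, CCN3 above the line, and CCN1 and CCN2 at the lower left.

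Over the 20 arrays the CCN genes fell into separate patterns. The arrays form 5 groups, so the correlations below describe those group patterns and carry no p. CCN1 (201289_at) and CCN2 had a Pearson r of 0.96 with each other, CCN5 had 0.84 with CCN2, and CCN3 (214321_at) had -0.71 with CCN2. CCN4 (229802_at) was close to unrelated to CCN1 (0.03) and CCN2 (-0.11).

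Among the 2608 genes whose group means spanned at least 1 on the log2 scale, CCN2 was most like the intracellular chloride channel gene CLIC3 (r = 0.995), the LIM protein AJUBA (0.994), CDC42EP3 (0.992), PLAC8 (0.991) and TMEM178B (0.991), and most opposed to CARD16 (-0.976), DNER (-0.975) and GLI3 (-0.972). CCN1 was most like the endocytic adaptor DAB2 (0.994), NALCN (0.989) and TUFT1 (0.988) and most opposed to the bradykinin receptor BDKRB2 (-0.966). CCN4 was most like DSTYK (0.989), SLC16A4 (0.987), LMO4 (0.987) and the transcription factor SOX4 (0.986), and most opposed to HMGB3 (-0.993). CCN3 was most like the cytokine IL1A (0.956) and CCN5 most like the squalene epoxidase gene SQLE (0.956).

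Genes for the partners of the family were described from chosen lists. Of 15 receptor genes measured (integrin chains, LRP1, LRP6, SDC4, NOTCH1 and IGF2R), 9 were higher and 3 lower in siAPC/siTAZ against siAPC cells. Of all genes 19.9% were higher and 21.7% lower. The median change of the receptor genes was 0.22 beside -0.03 for all genes. In sibcat/siTAZ against sibcat cells 7 were higher and 2 lower (all genes, 16.3% higher and 12.5% lower), with a median of 0.12 beside 0.01. The shares of all genes for siAPC against control cells were 20.0% higher and 17.4% lower, and for sibcat against control cells 19.9% higher and 14.3% lower. ITGB2, the beta chain of leukocyte integrins, had the largest change, with -4.34 ± 0.11 and -3.56 ± 0.11 (log2, SE) with TAZ siRNA in the siAPC and sibcat backgrounds (adjusted p = 5.86e-17 and 2.03e-15). Without TAZ siRNA it was 1.44 higher in siAPC and 1.06 higher in sibcat than in control cells. The collagen-binding chain ITGA2 changed by -0.69 in siAPC and -1.77 in sibcat cells and by 0.87 and 0.45 when TAZ siRNA was added. NOTCH1, a receptor for CCN3, rose by 0.95 and 0.76 with TAZ siRNA. Without TAZ siRNA, 3 receptor genes were higher and 7 lower in siAPC cells, and 4 were higher and 6 lower in sibcat cells, ITGA6, the alpha 6 chain of CCN1 receptors, changing by -0.95 in siAPC cells.

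Of 11 genes whose products bind CCN proteins, 6 were higher and 1 lower with TAZ siRNA in the siAPC background (median 0.29, beside 19.9% and 21.7% of all genes with a median of -0.03). In the sibcat background 4 were higher and 2 lower (median 0.19, beside 16.3% and 12.5% of all genes with a median of 0.01). BMP4, a growth factor bound by CCN2, was 4.64 ± 0.08 (log2, SE) higher in siAPC and 2.39 ± 0.08 higher in sibcat than in control cells. With TAZ siRNA BMP4 changed by -2.64 ± 0.08 in the sibcat background (adjusted p = 6.68e-16). In the siAPC background BMP4 went the other way and rose by 0.59 ± 0.08 (adjusted p = 2.25e-06). VEGFA, which CCN2 can sequester, changed by -1.12 and -0.77 with TAZ siRNA in the siAPC and sibcat backgrounds. GJA1, a gap junction connexin that binds CCN3, rose by 3.39 in siAPC cells and changed by -0.72 in sibcat cells (log2), and rose by 0.90 and 0.44 with TAZ siRNA. In siAPC against control cells 4 of the 11 were higher and 3 lower, beside 20.0% and 17.4% of all genes. In sibcat against control cells 2 were higher and 3 lower, beside 19.9% and 14.3% of all genes.

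Of 19 transcription factors and coactivators that act on CCN genes, 8 were higher and 9 lower with TAZ siRNA in the siAPC background (median -0.09, beside 19.9% and 21.7% of all genes). In the sibcat background 4 were higher and 10 lower (median -0.20, beside 16.3% and 12.5% of all genes). Both counts of lower genes include WWTR1, and that in the sibcat background CTNNB1, which siRNA targeted. The TEAD partner VGLL3 changed by -1.50 and -0.94 (log2), after rises of 1.03 and 0.66 in siAPC and sibcat cells. YAP1, the paralogue of TAZ, changed by -0.58 in siAPC and -0.44 in sibcat cells and by a further -0.75 and -0.36 with TAZ siRNA. TEAD1 rose by 0.89 and 0.70 in siAPC and sibcat cells. In siAPC against control cells 7 of the 19 were higher and 6 lower, beside 20.0% and 17.4% of all genes. In sibcat against control cells 3 were higher and 10 lower, beside 19.9% and 14.3% of all genes. Those 10 include the siRNA target CTNNB1 and also WWTR1.

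Other matricellular and IGFBP-module genes held members that moved as CCN1 and CCN2 did and members that did not. THBS1, a matricellular regulator of TGF-beta activation, rose by 0.99 and 0.90 (log2) in siAPC and sibcat cells and changed by -2.30 and -2.88 with TAZ siRNA. SPARC changed by -0.76 and -0.74 in siAPC and sibcat cells and rose by 2.38 and 1.72 with TAZ siRNA. Of 19 such matricellular genes, 10 were higher and 3 lower with TAZ siRNA in the siAPC background (median 0.30, beside 19.9% and 21.7% of all genes). In the sibcat background 8 were higher and 2 lower (median 0.04, beside 16.3% and 12.5% of all genes). IGFBP3, the main carrier of insulin-like growth factors in blood, rose by 2.41 and 2.14 in siAPC and sibcat cells and changed by -2.47 and -2.32 with TAZ siRNA. CRIM1, a membrane protein with an IGFBP-like module, rose by 1.66 and 1.18 and changed by -2.77 and -3.42. Of 12 genes with an IGFBP module outside the family, 6 were higher and 2 lower with TAZ siRNA in the siAPC background (median 0.15), and 5 were higher and 2 lower in the sibcat background (median 0.10), beside the same shares of all genes.

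**Figure D4:**
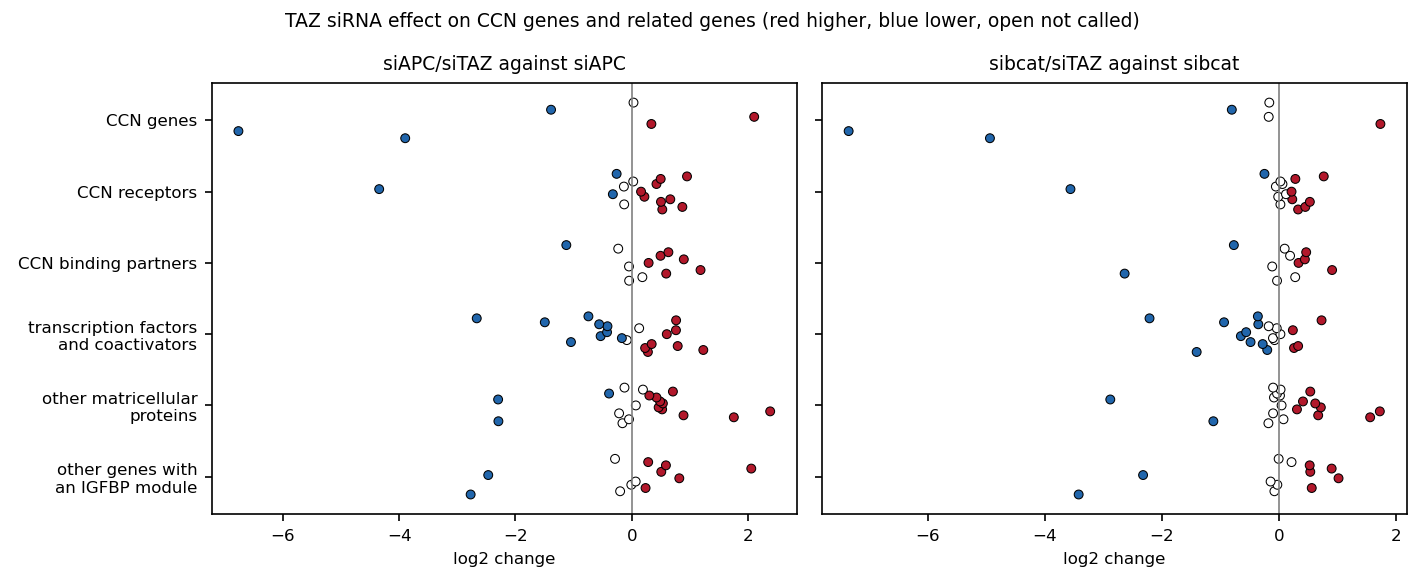
Log2 change with TAZ siRNA (x axis) of the 6 CCN genes and of the genes in 5 related lists (rows), in the siAPC background (left) and the sibcat background (right); red is higher, blue lower and open not called. CCN2 and CCN1 are the leftmost points of the upper row at -6.76 and -3.90 in the siAPC background, and ITGB2 at -4.34 is the leftmost receptor gene.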

How the data were processed

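Total RNA of MII cells was labelled and hybridised to HG-U133 Plus 2.0 arrays from Affymetrix, with 1 array for each sample. The deposited values are log2 signals on 20 arrays, written with 2 decimals; the authors made them with RMA, per the submitters' processing notes, whose version is not stated in the sources used. The log2 scale was read from the values. All 20 columns were used and no pair of arrays was identical. Probe sets were named by the platform annotation supplied with the series: 41091 carried a single symbol, and the one with the highest mean stood for its gene. The 62 control probe sets were left out, and no filter on low signals was applied.

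All 20 arrays entered 1 group-means model in limma 3.58.1 (R 4.3.3) (15 residual degrees of freedom, eBayes prior 4.14), two-sided, with Benjamini-Hochberg adjustment over 54613 probe sets in each of 9 comparisons. The number of arrays limits the precision. The fit was tested on simulated data. The family members, gene lists and named-gene rule were chosen with earlier results of these data known. Named genes were all members, the siRNA targets, up to 3 called genes in each direction from a list in a comparison, and the 5 genes most like and 3 most opposed to a member. Arrays with the same replicate letter were not treated as pairs. Over 40 same-letter pairs the correlation of deviations from the group means lay between -0.09 and 0.16, with 6 over 0.1. Alternatives were another choice of probe set, filters on low signals, a trend in the prior, median centring, the compared groups alone, a replicate block and leaving out each array.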

Additional observations from a re-analysis of the deposited data

Results flagged for a closer look

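The effect of TAZ siRNA differed between the siAPC and the sibcat background for 8 of the 12 CCN probe sets, by the test of the difference itself. Counted by gene, the difference was positive for 2 of the 6 and negative for 2, beside 10.9% and 13.7% of all genes. The siRNA targets also differed in this test, CTNNB1 by 1.68, APC by -0.67 and WWTR1 by -0.45 (log2). Their part in the CCN differences was not tested. The differences (siAPC minus sibcat background, log2) were 2.28 (229802_at), 1.95 (206796_at) and 2.02 (235821_at) for CCN4, 1.04 (201289_at) and 0.78 (210764_s_at) for CCN1, -1.39 (214321_at) and -1.03 (204501_at) for CCN3, and -0.58 (205792_at) for CCN5.

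A single array stood apart from the other 3 of its group in 2 of 60 groups examined, where chance gives about 1 in 20. CCN1 (201289_at) had 6.90 on sibcat/siTAZ replicate A, above the 6.64 to 6.66 of the other arrays. CCN6 (226182_s_at) had 3.83 on sibcat replicate A, below the 4.00 to 4.03 of the others.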

How the results depend on the processing

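The count of CCN genes called in each comparison was the same with 1 probe set per gene, the mean of a gene's probe sets, probe sets at or above the median signal, median centring and the compared arrays alone. Of the 20 arrays, 10 had their highest mean correlation with the arrays of their own letter in other groups. The 40 same-letter correlations lay between -0.09 and 0.16, with a median of 0.02 against -0.01 between different letters. This hint of pairing comes from the data and not from the design. With a replicate block no count changed (30.4% of probe sets called in siAPC against control cells). Leaving out an array moved 2 counts: siAPC against sibcat had 3 genes called in place of 4, and the difference of TAZ siRNA effects had 3 to 5 (5 also with an intensity trend). With probe sets of a mean of at least 7, only 3 CCN genes were tested, and 3 were called in every comparison except siAPC/siTAZ against sibcat/siTAZ cells, where 2 were. Dim probe sets were called less often: at or above the median signal 55.3%, 50.7%, 61.5%, 45.0%, 66.1%, 62.5%, 49.4%, 64.1% and 39.9% were called, and with a mean of at least 7, 70.3%, 67.6%, 75.6%, 60.0%, 79.4%, 76.6%, 65.0%, 79.8% and 57.5%. Both series run through siAPC and sibcat against control, siAPC/siTAZ against siAPC, sibcat/siTAZ against sibcat, siAPC/siTAZ and sibcat/siTAZ against control, siAPC against sibcat, siAPC/siTAZ against sibcat/siTAZ, and the difference of TAZ siRNA effects. The difference for CCN2 was called with an intensity trend (adjusted p = 0.0219) and with a mean of at least 7 (adjusted p = 0.0308). CCN4 211312_s_at lost its call in siAPC/siTAZ against sibcat/siTAZ cells under median centring (0.27, adjusted p = 0.0728). The sign of 2 uncalled values turned under median centring, to 0.0225 for CCN6 210861_s_at in sibcat/siTAZ against control and -0.02 for CCN3 204501_at in siAPC/siTAZ against sibcat/siTAZ cells. With arrays left out, signs turned only in uncalled values. For CCN6 210861_s_at these ran between -0.0917 and 0.0117 in siAPC against control, -0.0942 and 0.00917 in sibcat against control, -0.0342 and 0.0325 in siAPC/siTAZ against siAPC, -0.0158 and 0.0808 in sibcat/siTAZ against sibcat, -0.0692 and 0.0483 in sibcat/siTAZ against control, -0.0425 and 0.0517 in siAPC against sibcat, -0.0908 and 0.0025 in siAPC/siTAZ against sibcat/siTAZ cells, and -0.0933 and 0.0075 in the difference of effects. For CCN6 226182_s_at they ran between -0.0075 and 0.106 in siAPC/siTAZ against siAPC and -0.0892 and 0.0683 in siAPC/siTAZ against sibcat/siTAZ cells. The others were CCN4 206796_at (-0.0917 to 0.0675) and 211312_s_at (-0.114 to 0.0225) in sibcat/siTAZ against sibcat, CCN5 (-0.0225 to 0.138) in siAPC against sibcat, and CCN3 204501_at (-0.0225 to 0.0375) in siAPC/siTAZ against sibcat/siTAZ cells. Signals under the array medians limit what CCN2, CCN4, CCN5 and CCN6 can show.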

Other observations

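The CCN2 signals of replicates A, B, C and D were 3.77, 4.23, 4.38 and 4.70 in siAPC/siTAZ cells and 2.72, 3.04, 3.45 and 3.64 in sibcat/siTAZ cells, so the letters ranked alike in these 2 groups. Their SDs of 0.39 and 0.41 exceeded the 0.04 of siAPC, the 0.06 of sibcat and the 0.13 of control cells. This was noticed after the values were seen, and it was not tested.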
